A study of Mus musculus with 8 samples.

Results

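Nuclear-encoded respiratory chain genes were examined in RNA-seq of adhesion-related macrophages (ARMs) and of macrophages of the stromal vascular fraction (SMs) from mouse epididymal white adipose tissue (eWAT). The genes were taken by symbol, as every row starting with Nduf, Uqcr, Cox4 to Cox8 or Atp5, or named Sdha to Sdhd. They numbered 94 of the 17740 genes listed for mice on a high-fat diet (HFD) and 93 of the 16436 genes listed for mice on a normal diet (ND), since Cox7b2 was listed for HFD mice only. By complex, the 94 genes comprised 46 of complex I, 4 of complex II, 8 of complex III, 19 of complex IV and 17 of complex V. The complex I genes included 7 core subunits, 29 accessory subunits, 8 assembly factors and 2 gene copies, Ndufa11b and Ndufb4c.

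All mice were wild-type C57BL/6J males and carried no transgene. Both diets were begun at 6 weeks of age. HFD mice were kept on theirs for 8 weeks, and the diet of ND mice is chow in the labels and a purchased normal diet in the study's methods. In both diets eWAT was digested with collagenase, ARMs were shaken off the floating adipocyte layer and SMs were taken from the pelleted fraction, and each was sorted on CD45, CD11b and F4/80. There were 2 libraries for each of the 4 groups (HFD SM, HFD ARM, ND SM and ND ARM), each made from 6 pooled HFD mice or 10 pooled ND mice, so that n is 2 pools in every comparison. Nothing in the labels says that the pools were collected on separate days, and p-values measure only the spread between these libraries. Estimated counts summed to between 18288775 and 19040133 per HFD library and to between 14508824 and 16319038 per ND library. The ARM and SM libraries were set against each other inside a diet only, because short genes were processed differently in the 2 tables.

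The respiratory chain of the inner mitochondrial membrane passes electrons from NADH (complex I) and succinate (complex II) through complex III to complex IV, which reduces oxygen, and the proton gradient that this builds drives ATP synthase (complex V). Nuclear genes encode all subunits of complex II and most subunits of the other complexes, while mitochondrial DNA encodes the remaining core subunits. In macrophages, oxidative phosphorylation is known to be used more by alternatively activated cells and less after inflammatory stimulation.

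Promoters of these genes are known for sites of NRF1 and of ETS family factors such as GABPA. The 250 bases before the annotated start were read for 76 of the 94 genes (81 windows) from RefSeq, build GRCm38.p6. The motif GCGCANGCGC of NRF1 was found, on either strand, in 15 of the 81 windows (18.5%) and in 3.74% of all 32851 windows of this length. CCGGAAG, the ETS family motif, was found in 14 windows of these genes (17.3%) and in 6.91% of all windows. AAGGTCA, a core site of the estrogen-related receptors, occurred in 5 windows (6.17%) and in 4.08% of all windows, and AAGATGG, the YY1 motif, in 1 window (1.23%) and in 4.49% of all windows. A match is only a description of these letters.

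For each complex, the sequence before the start is shown for the gene with a window whose ND comparison had the smallest p. In ND mice the genes of every complex were mostly below the SM level. Complex II as a whole moved less (median log2 fold change -0.05), while Sdhd, its gene shown here, had a value of -0.18. Motif matches are in capitals. Ndufa3 lies at chr7:3617123-3617372 on the plus strand, Sdhd at chr9:50603850-50604099, Uqcr11 at chr10:80406822-80407071, Cox6b1 at chr7:30626115-30626364 and Atp5k at chr5:108434400-108434649, the last 4 on the minus strand.
Ndufa3 (complex I): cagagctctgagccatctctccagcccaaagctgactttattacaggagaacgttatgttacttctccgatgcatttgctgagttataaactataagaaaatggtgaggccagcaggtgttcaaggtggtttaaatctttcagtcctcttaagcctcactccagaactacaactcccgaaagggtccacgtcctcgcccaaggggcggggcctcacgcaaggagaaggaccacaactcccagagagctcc
Sdhd (complex II): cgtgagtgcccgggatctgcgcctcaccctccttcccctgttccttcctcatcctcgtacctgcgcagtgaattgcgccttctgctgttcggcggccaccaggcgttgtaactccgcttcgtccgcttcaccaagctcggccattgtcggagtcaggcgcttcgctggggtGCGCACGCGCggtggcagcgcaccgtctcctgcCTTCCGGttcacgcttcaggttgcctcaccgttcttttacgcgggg
Uqcr11 (complex III): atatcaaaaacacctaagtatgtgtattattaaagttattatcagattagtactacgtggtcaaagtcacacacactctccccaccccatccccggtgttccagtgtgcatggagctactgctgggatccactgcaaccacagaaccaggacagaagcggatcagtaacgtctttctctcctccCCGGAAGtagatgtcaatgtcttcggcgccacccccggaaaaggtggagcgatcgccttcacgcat
Cox6b1 (complex IV): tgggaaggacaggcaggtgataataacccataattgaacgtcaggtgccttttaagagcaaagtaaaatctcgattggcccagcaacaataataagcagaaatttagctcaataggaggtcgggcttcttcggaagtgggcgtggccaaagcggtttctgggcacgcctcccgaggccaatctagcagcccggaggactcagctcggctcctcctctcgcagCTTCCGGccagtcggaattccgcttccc
Atp5k (complex V): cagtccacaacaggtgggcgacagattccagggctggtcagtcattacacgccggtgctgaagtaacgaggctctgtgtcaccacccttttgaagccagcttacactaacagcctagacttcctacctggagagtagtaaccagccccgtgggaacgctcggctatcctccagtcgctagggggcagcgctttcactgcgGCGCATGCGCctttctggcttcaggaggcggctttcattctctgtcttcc
The window of Ndufa3 held none of the 4 motifs. That of Sdhd held an NRF1 and an ETS family match, those of Uqcr11 and Cox6b1 an ETS family match each, and that of Atp5k an NRF1 match that reads the same on both strands.

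The respiratory chain genes were expressed at a high level in all 8 libraries. Their levels in TPM, a unit scaled for gene length and library size, summed to 1.02% to 1.08% of the total in the HFD libraries and to 0.997% to 1.24% in the ND libraries. In HFD mice, 42 of the 94 genes had a mean TPM of 100 or more, 37 one of 10 to under 100, 12 one of 1 to under 10, and 3 were under 1. In ND mice the numbers were 43, 37, 9 and 4 of 93. The 10 highest genes held 34.3% of the summed TPM of the set in the HFD libraries and 32.2% in the ND libraries.

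Within each complex the levels were uneven. Among the complex I genes in HFD mice, mean TPM ran from 27.2 to 95.3 over the 7 core subunits, which between them hold the flavin and iron-sulfur clusters, and from 14.6 to 140 over the 29 accessory subunits. It ran only from 4.10 to 26.8 over the 8 assembly factors, which are not part of the finished complex. ND ranges were 40.2 to 104, 13.8 to 170 and 3.36 to 29.4. Ndufb8, an accessory subunit of the membrane arm, had the highest level of complex I, with 130 and 139 TPM in HFD SMs, 151 and 139 in HFD ARMs, 189 and 166 in ND SMs and 166 and 159 in ND ARMs. Uqcrb, a subunit of complex III, led its complex with 214 to 236 TPM in the 4 HFD libraries and 287 to 370 in the 4 ND libraries. Atp5b, the catalytic beta subunit of ATP synthase, led complex V with 425 to 448 TPM (HFD) and 420 to 501 TPM (ND). Complex IV was led by Cox6a1 in HFD mice (468 to 498 TPM) and by Cox4i1 in ND mice (427 to 511 TPM).

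Summed over all members, the level was 10271 and 10159 TPM in the HFD SM libraries and 10502 and 10837 in the HFD ARM libraries. The groups did not overlap, and the ratio of the means, ARM over SM, was 1.04. The ND SM libraries summed to 12371 and 11003 TPM and the ND ARM libraries to 11040 and 9970. Here the groups overlapped, since the second SM library lay below the first ARM library, and the ratio was 0.899. The sums of complexes I and III in ND mice did not overlap between groups, with 3127 and 2900 TPM in SMs against 2740 and 2550 in ARMs for complex I, and 1270 and 1166 against 1149 and 1015 for complex III. In HFD mice the sums of complexes I, III, IV and V did not overlap either, with the ARM libraries above the SM libraries. For complex I they were 2578 and 2605 TPM in HFD SMs against 2698 and 2747 in HFD ARMs. Those of complex III were 956 and 934 against 966 and 976. In HFD mice the ratios were 1.05 for complex I, 1.03 for complex III, 1.06 for complex IV and 1.04 for complex V. The complexes of a diet share the same libraries, so these separations are not independent of each other. Among single genes, on normalised counts, both ARM libraries lay above both SM libraries for 26.3% in HFD mice. Both lay below for 22.8% in ND mice. Complex II moved least, with ratios of 0.991 (HFD) and 0.975 (ND). In bulk RNA, fewer cells of a type and less RNA per cell cannot be told apart.

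**Figure D1:**
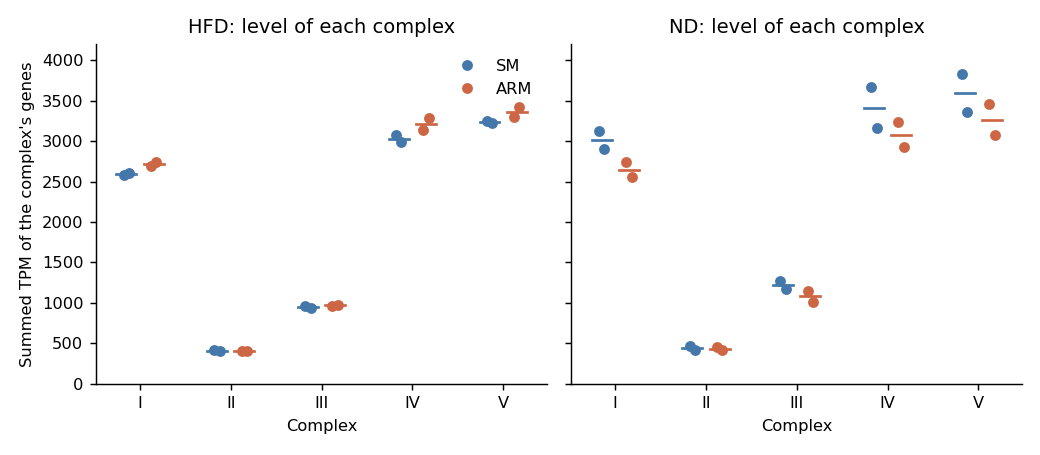
Summed TPM of the genes of each complex (y axis, from 0) in each library, for HFD mice (left) and ND mice (right). Points are libraries, blue for SM and orange for ARM, and short lines are the means of 2 libraries. In ND mice the ratio of the ARM to the SM mean was 0.878 for complex I, 0.975 for complex II, 0.888 for complex III, 0.902 for complex IV and 0.908 for complex V.

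Several complex IV subunits exist as a widespread and a tissue-restricted isoform, and the widespread one was the higher of each pair in these macrophages. Cox4i1, the subunit IV isoform of most tissues, was at 353 and 337 TPM in HFD SMs and 370 and 402 in HFD ARMs, while Cox4i2, the isoform of lung and of oxygen-sensing cells, was at 0.960 and 0.490 and at 1.56 and 1.49. Cox4i2 was under the filter on low counts in ND mice, with at most 4 counts in a library. Cox6a1 was at 316 to 498 TPM over all 8 libraries and the heart and muscle isoform Cox6a2 at 2.29 to 6.87. Cox6b1 was at 275 to 351 TPM and the testis isoform Cox6b2 at 1.24 to 6.42. Cox7a2 was at 59.5 to 93.5 TPM and the heart and muscle isoform Cox7a1 at 4.18 to 10.8. Cox8a was at 358 to 480 TPM, and its muscle isoform Cox8b had at most 1 count in any library. Ndufa4, a subunit of complex IV despite its name, was at 192 to 269 TPM, and its hypoxia-induced relative Ndufa4l2 at 0.670 to 7.15. The ranges of each pair did not overlap.

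**Figure D2:**
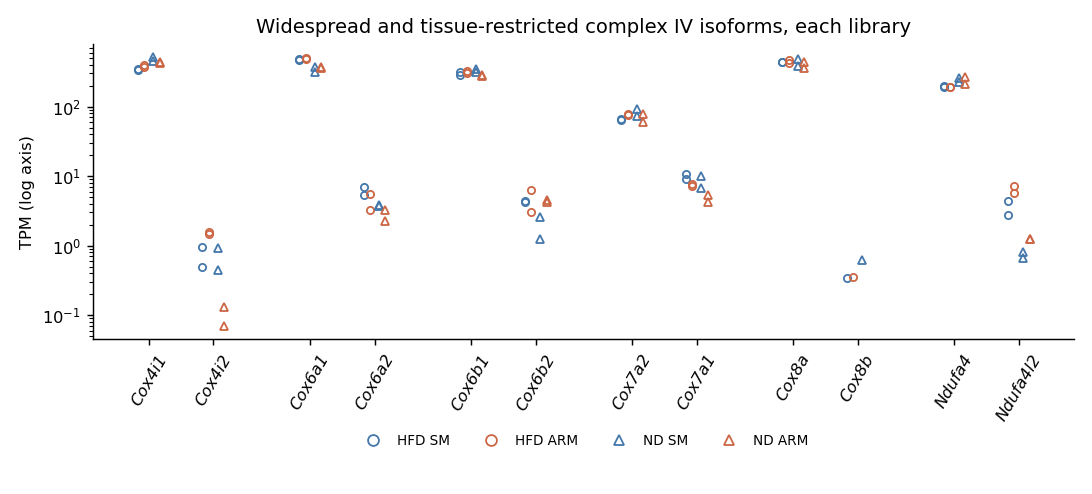
TPM (y axis, log scale) of the widespread and the tissue-restricted complex IV isoforms, pair by pair, in each library (circles HFD, triangles ND, blue SM, orange ARM). Libraries with a TPM of 0 are not drawn. The widespread isoforms lay between 59.5 and 511 TPM and the restricted ones at or under 10.8 TPM.

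Whether ARMs and SMs differ in these genes was tested with edgeR's quasi-likelihood test, fitted over all genes that passed its filter on low counts, with Benjamini-Hochberg adjustment over all of them. In HFD mice 91 of the 94 respiratory chain genes were tested, and neither direction had a member with an adjusted p under 0.05. Of all 13337 genes tested, 6.53% were called higher and 3.02% lower in ARMs at that threshold, and 4.46% and 0.292% when a fold over 1.5 was also required. At an unadjusted p under 0.05, 7 members were higher (7.69%, against 13.4% of all genes) and 1 of the 91 was lower (against 9.75%). DESeq2 called 0 members as well. The intervals were narrow. For 81 of the 91 members the 95% interval of the fold change lay within 1.5-fold in both directions, including all 75 subunits that are not assembly factors, gene copies or restricted isoforms, nor Cox7a2l and Atp5s.

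The median log2 fold change of the members in HFD mice was 0.06, beside -0.01 over all genes. It was 0.06 for complex I, -0.05 for complex II, 0.06 for complex III, 0.08 for complex IV and 0.03 for complex V, and 60 of the 91 values were above 0. On normalised counts, both ARM libraries lay above both SM libraries for 31 members (34.1%), against 26.3% of all genes. Both lay below for 10 of the 91 members, against 26.4% of all genes. Core subunits of complex I (median -0.04) had 6 of 7 values below 0, and its accessory subunits (median 0.08) had 21 of 29 above 0. Of all genes, 51.5% were below 0. Gene length, taken as described below, had a median of 1530 bases for the core and 625 for the accessory subunits. The part of length in this contrast was not tested.

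The member with the smallest p in HFD mice, Ndufa4l2, also had the largest fold change, at a low level, and did not pass the test. It was at 4.43 and 2.80 TPM in SMs and 5.68 and 7.15 in ARMs. Its log2 fold change was 0.81 (95% interval 0.17 to 1.47, edgeR adjusted p = 0.118). Markers of pericytes and smooth muscle, summed, were also higher in HFD ARMs (71.9 and 65.5 TPM) than in HFD SMs (44.3 and 29.4). Of these, 4 of 9 were called higher, against 6.53% of all genes. The part of such cells in the values of Ndufa4l2 and Cox4i2 was not tested. Ndufb7, an accessory subunit of the membrane arm of complex I, was at 97.3 and 99.3 TPM in SMs and 114 and 116 in ARMs (log2 fold change 0.22, adjusted p = 0.126). Cox7a2 was at 66.7 and 64.5 TPM in SMs and 74.8 and 79.5 in ARMs (0.22, adjusted p = 0.131). In all 3 genes, taken for their smallest p, the groups did not overlap, and the 2 subunits differed by less than 1.5-fold.

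Ndufa6, Ndufa7 and Ndufv3, accessory subunits of complex I, and Atp5l, subunit g of ATP synthase, had log2 fold changes of 0.17 to 0.21 with edgeR adjusted p-values of 0.137 to 0.218. The largest of these 4 in level, Atp5l, was at 293 and 282 TPM in SMs and 331 and 321 in ARMs. Cox4i1 was 0.15 higher on the log2 scale (adjusted p = 0.208). Ndufv1, the core subunit that binds NADH, was at 43.3 and 43.5 TPM in SMs and at 35.7 and 40.9 in ARMs (log2 fold change -0.19, edgeR adjusted p = 0.211). Atp5s, coupling factor B, was at 4.82 and 4.11 TPM in SMs and 3.76 and 3.25 in ARMs (-0.45, adjusted p = 0.238). These directions are of single genes that did not pass the test.

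Ndufb4c, a gene copy near-identical to Ndufb4 whose reads the counting shared out, had a log2 fold change of 0.62 with overlapping groups (15.2 and 8.04 TPM in SMs, 21.4 and 14.8 in ARMs, edgeR adjusted p = 0.259). Without the first HFD SM library 2 members were called higher, Ndufa4l2 (1.20, adjusted p = 0.0482) and Ndufb4c (1.16, adjusted p = 0.0287). In complex III the values ran from -0.12 for Uqcrh to 0.13 for Uqcr10, and in complex IV the lowest was Cox6a2 at -0.48 with 18 to 38 counts per library. Cox7b2, Cox8b and Ndufa11b were not tested, with at most 5.64 counts in any library.

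The subunits of complex II, which are all encoded in the nucleus and also serve the tricarboxylic acid cycle, had log2 fold changes of -0.09 (Sdha, the flavoprotein), 0.06 (Sdhb, the iron-sulfur subunit), -0.02 (Sdhc) and -0.08 (Sdhd) in HFD mice. In ND mice they were -0.03, -0.06, -0.05 and -0.18. All 8 intervals lay within 1.5-fold, and that of Sdhd in ND mice ran from -0.44 to 0.07. Sdhc was the highest in HFD mice, at 131 to 148 TPM, and Sdha was the highest in ND mice, at 127 to 133 TPM.

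**Figure D3:**
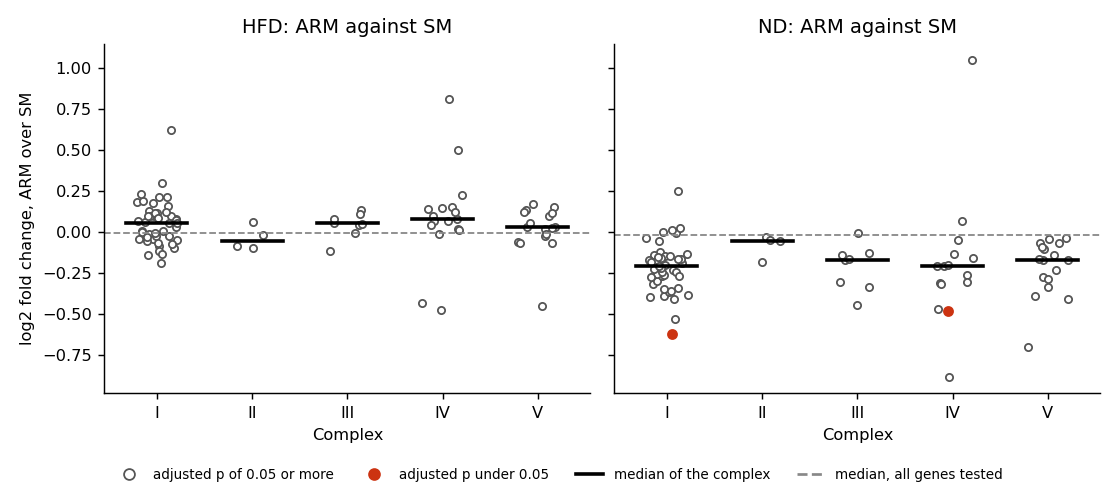
Log2 fold change of each tested respiratory chain gene, ARM over SM (y axis), by complex (x axis), in HFD mice (left) and ND mice (right). Open points did not pass an adjusted p of 0.05 (edgeR), filled red points did, black bars are the medians of a complex and the dashed line is the median of all genes tested. In HFD mice the medians ran from -0.05 to 0.08, and in ND mice from -0.21 to -0.05.

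In ND mice 2 of the 89 respiratory chain genes tested were lower in ARMs at an adjusted p under 0.05, Ndufa3 and Cox6c, and 0 were higher. Of all 12441 genes tested, 0.458% were called lower and 4.28% higher. With a fold over 1.5 also required, the call was left for Ndufa3, and the background was 0.129% lower and 3.55% higher. Ndufa3, a small accessory subunit of the membrane arm of complex I, was at 167 and 169 TPM in SMs and 111 and 116 in ARMs. The groups lay far apart beside the gap within each. Its log2 fold change was -0.62 (95% interval -0.93 to -0.31, edgeR adjusted p = 0.0209). Cox6c, a small membrane subunit of complex IV, was at 302 and 259 TPM in SMs and 216 and 198 in ARMs, again without overlap. Its log2 fold change was -0.48 (95% interval -0.74 to -0.23, adjusted p = 0.0281). Ndufa3 and Cox6c were picked by p in this same comparison, which favors groups without overlap. On normalised counts, 22.8% of all genes tested had ARM as the lower group without overlap.

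Both calls depended on the fit. With DESeq2, which called 0 members, the log2 fold changes were close to those of edgeR, at -0.61 for Ndufa3 (adjusted p = 0.121) and -0.48 for Cox6c (adjusted p = 0.0614). Leaving out any 1 of the 4 ND libraries took the adjusted p of Ndufa3 to 0.0742 to 0.129 with log2 fold changes of -0.66 to -0.59. Cox6c lost its call without the first SM library (log2 fold change -0.36, adjusted p = 0.377), the first ARM library (-0.55, adjusted p = 0.0583) or the second ARM library (-0.43, adjusted p = 0.268). It was also not called with limma on log2(FPKM + 1), at -0.46 (adjusted p = 0.0766).

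The other members lay mostly on the same side. The median log2 fold change of the 89 genes was -0.19, beside -0.02 over all genes, and 83 of 89 (93.3%) were below 0, against 53.5% of all genes. It was -0.21 for complex I (41 of 45 below 0), -0.05 for complex II (4 of 4), -0.17 for complex III (8 of 8), -0.21 for complex IV (13 of 15) and -0.17 for complex V (17 of 17). For 38 members (42.7%) the ARM libraries were both under the 2 SM libraries, against 22.8% of all genes, and for 1 member (1.12%) both were over them, against 21.2%. At an unadjusted p under 0.05, 19 members were lower (21.3%, against 4.75% of all genes) and 0 were higher. Members share the same 4 libraries, so these counts are not independent of each other. The first SM library held the highest TPM of 62 of the 89 members and the second ARM library the lowest of 56. Without that SM library the median was -0.09, 64 of 89 were below 0 and 0 were called, and without that ARM library the median was -0.14, 72 were below 0 and 0 were called.

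Of the next members by p, none passed the test in this fit. Atp5k and Uqcr11 passed edgeR's test in one fit of all 8 libraries (adjusted p = 0.029 and 0.0476). Atp5k also passed with limma on log2(FPKM + 1) (adjusted p = 0.0116). Uqcr11 also passed with edgeR when genes needed only 1 count in all (adjusted p = 0.0292). Ndufa13, an accessory subunit of complex I also known as GRIM-19, was at 122 and 116 TPM in SMs and 91.4 and 94.9 in ARMs (log2 fold change -0.39, edgeR adjusted p = 0.0829). Uqcr11, a small subunit of complex III, was at 211 and 170 TPM against 145 and 145 (-0.44, adjusted p = 0.0927). Atp5k, subunit e of ATP synthase, was at 76.7 and 75.8 TPM against 50.03 and 47.9 (-0.70, adjusted p = 0.114). All 3, chosen by p in this same comparison, had groups that did not overlap. Atp5k, with 48 to 86 counts per library, had the lowest value of complex V.

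Atp5e, the epsilon subunit of the F1 part, was at 211 and 206 TPM in ND SMs and 180 and 149 in ND ARMs (-0.39, edgeR adjusted p = 0.116). Atp5j2, subunit f of the Fo part, was at 306 and 281 TPM against 249 and 231 (-0.34, adjusted p = 0.119). Cox6b1, a subunit of complex IV on the intermembrane side, was at 351 and 319 TPM against 275 and 282 (-0.31, adjusted p = 0.132). Ndufa2 and Ndufb4, accessory subunits of complex I, had log2 fold changes of -0.40 and -0.38 (adjusted p = 0.138 and 0.182). In each of these genes, also chosen by p, the ARM libraries were both under the SM libraries. Ndufb4 had counts that were not whole in every ND library. Its near-identical copy Ndufb4c, with which reads were shared out, had a log2 fold change of 0.25 (edgeR adjusted p = 0.7).

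The 7 core subunits of complex I were all below 0 in ND mice, the lowest being Ndufv2 at -0.27, and the 95% interval of each lay within 1.5-fold. Ndufs1, the largest subunit, had a value of -0.15 and Ndufv1 of -0.16. The groups did not overlap for 2 of the 7 (28.6%), with ARMs the lower group, against 22.8% of all genes. With ARMs the higher group there were 0 of the 7, against 21.2% of all genes. All 8 assembly factors were below 0, from -0.36 to -0.14, and their intervals were wide, reaching a median of 0.51 to either side. In complex V the values ran from -0.70 for Atp5k to -0.03 for Atp5d, the delta subunit, and in complex III from -0.44 for Uqcr11 to -0.003 for Uqcrc2. The 6 members above 0 were Ndufa10, Ndufab1, Ndufb10, Ndufb4c, Cox6a1 and Cox6b2. Among them Cox6b2 was at 1.24 and 2.57 TPM in SMs and 4.20 and 4.48 in ARMs, with 3 to 12 counts per library (log2 fold change 1.05, edgeR adjusted p = 0.46). Cox7a1, with 7 to 17 counts, had a value of -0.89 (adjusted p = 0.484). Ndufa4l2, Cox4i2, Cox8b and Ndufa11b were not tested, and Ndufa4l2 had 4 and 5 counts in SMs and 8 and 7 in ARMs.

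**Figure D4:**
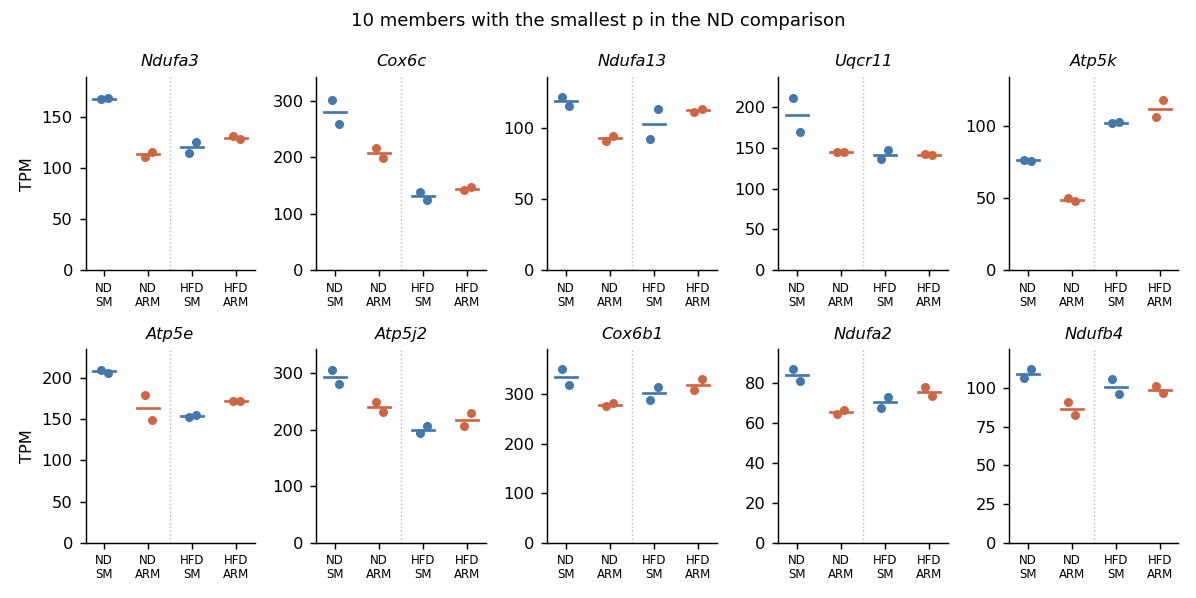
TPM (y axes, from 0) of the 10 members with the smallest p in the ND comparison, in each library of the 4 groups. Points are libraries, blue for SM and orange for ARM, and short lines are means of 2. In ND mice (left of the dotted line) the ARM libraries of all 10 genes lay below the SM libraries. The genes were chosen by p in this same comparison, which favors such separation. Levels are to be read within a diet.

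These genes are short, and in ND mice the fold change of genes in general went with length. The length that counts and FPKM (the authors' length-scaled fragment values) imply was under 400 bases for 29 of the 89 tested members in ND mice, with a median of 540 over the members and 2752 over all genes. The HFD table implied longer lengths, with a median of 691 and 6 of 91 under 400 bases. The median log2 fold change was -0.31 for those 29 members and -0.27 for the 97 other genes of that length. From 400 to under 800 bases it was -0.18 for 31 members and -0.14 for 522 other genes, and from 800 to under 1600 it was -0.16 for 21 members and -0.07 for 2011 other genes. From 1600 bases on it was -0.06 for 8 members, all below 0, and 0.002 for 9718 other genes. Ndufa3 (201 bases) and Cox6c (353 bases) were in the shortest class, in which 11 other genes were also called lower.

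With a loess correction for length, the median of the members in ND mice was -0.10, beside -0.02 over all genes, with 70 of 89 below 0. No member was called then, and Ndufa3 had a log2 fold change of -0.36 (edgeR adjusted p = 0.23) and Cox6c of -0.30 (adjusted p = 0.139). In HFD mice the correction moved the median of the members from 0.06 to 0.004, with 45 of 91 below 0. There the class under 400 bases held 6 members (median 0.08) and 28 other genes (median 0.18).

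**Figure D5:**
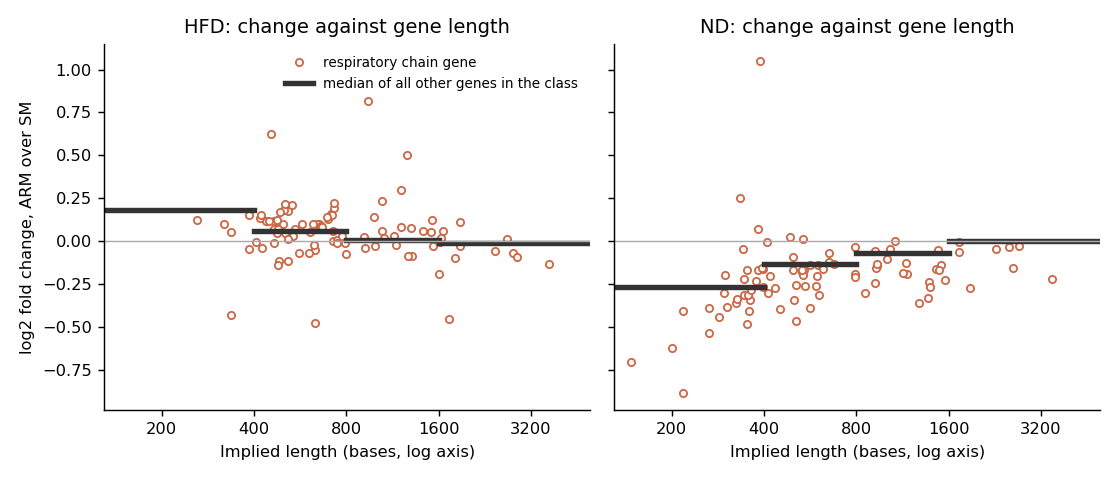
Log2 fold change, ARM over SM (y axis), of each tested respiratory chain gene (open points) against the implied length in bases (x axis, log scale), in HFD mice (left) and ND mice (right). Thick bars are the medians of all other genes in classes split at 400, 800 and 1600 bases, drawn to the edge of the plot in the outer classes. In ND mice the bars ran from -0.27 for the shortest class to 0.002 for the longest, and in HFD mice from 0.18 to -0.01.

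Whether the ARM to SM difference itself differed between diets was tested as an interaction in one fit of the 8 libraries over the 13358 genes in both tables. Of all genes, 0.0674% had a value above 0 (HFD less ND) at an adjusted p under 0.05 and 0.0973% a value below 0, and 0 of the 91 members tested passed in either direction. DESeq2 also called 0. At an unadjusted p under 0.05, 20 members were above 0 (22%, against 2.70% of all genes) and 0 below (against 4.91%). The median of the members was 0.21, beside -0.03 over all genes, and 84 of 91 (92.3%) were above 0, against 44.7% of all genes. Ndufa3 had the smallest p, with a difference of 0.71 (95% interval 0.37 to 1.04, edgeR adjusted p = 0.104), followed by Cox6c at 0.59 (0.27 to 0.91, adjusted p = 0.177) and Atp5k at 0.81 (0.36 to 1.26, adjusted p = 0.194). Without the first ND ARM library 1 member passed, Atp5e at 0.71 (adjusted p = 0.0393). With the length correction, a choice made after the data were seen, the median was 0.06. Then 30 of the 91 members were below 0, and the smallest edgeR adjusted p of a member was 0.513. Counts of the 2 diets were made in different ways, and its part in this difference was not tested.

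Other genes of the pathway were counted by lists. Of the assembly factors of complexes II to V, 36 were tested in each diet, and 0 passed in either direction, with medians of 0.02 (HFD) and -0.17 (ND). The 8 complex I assembly factors outside the symbol rule had medians of -0.02 and -0.17, also with 0 calls. The carriers Cyc1, a part of complex III, and Cycs, cytochrome c, had 0 calls in both diets. Of 15 regulators of mitochondrial biogenesis tested in HFD mice, 1 was called lower (6.67%, against 3.02% of all genes). This was Ppargc1b, a coactivator of nuclear receptors, which fell from 8.29 and 9.81 TPM in SMs to 7.24 and 7.34 in ARMs (log2 fold change -0.41, edgeR adjusted p = 0.0171). With DESeq2 the value of Ppargc1b was -0.40 (adjusted p = 0.0824), and without any 1 library but the first SM library its adjusted p was 0.0501 to 0.174. Of 16 tested in ND mice, 0 passed. Among 14 genes of the tricarboxylic acid cycle, 1 was called lower in HFD mice (7.14%, against 3.02% of all genes), and 0 passed in ND mice. The gene was Idh2, which makes NADPH in the mitochondrion, and it fell from 154 and 154 TPM to 132 and 131 (-0.23, edgeR adjusted p = 0.04). The call of Idh2 was lost with DESeq2 (-0.23, adjusted p = 0.0838) and with any 1 HFD library left out (0.0502 to 0.305). The 7 tested uncoupling and exchange carriers had 0 calls in both diets.

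Ribosomal protein genes are short as well. Among all genes tested in HFD mice, 6.53% were called higher in ARMs. For the cytosolic ribosomal proteins, the counts under other settings matched symbols more widely and could take in Rps6k kinase genes. The 78 genes of mitochondrial ribosomal proteins had a median of 0.004 for HFD and of -0.17 for ND, where 71 were below 0, and 0 calls in both diets. The 82 genes of cytosolic ribosomal proteins tested in HFD mice had a median of 0.17, with 19 called higher and 0 lower, and 0 to 24 called higher with 1 library left out, the 0 being without the second ARM library, beside 1 without the first ARM library and 9 without the second SM library. With the length correction 11 were called higher in HFD mice, and 16 with the replicate block and the length correction. In ND mice 81 were tested, with a median of -0.18, 8 called lower (9.88%, against 0.458% of all genes) and 0 higher. With the replicate block and the length correction 8 were called lower in ND mice. With 1 library left out 0 to 9 were called lower, with 0 without the second ARM library, 3 without the first SM library and 5 without the second, and with the length correction 0 were.

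Markers of other cells moved between the groups. Among all genes tested, 6.53% were called higher in HFD ARMs, and 4.28% higher and 0.458% lower in ND ARMs. All 10 macrophage markers were tested in both diets with 0 calls, and they summed to 27300 to 29600 TPM in the HFD libraries and 31500 to 32500 in the ND libraries. Adipocyte markers, of which 12 of 12 were called higher in HFD ARMs and 9 of 11 in ND ARMs, summed to 104 and 109 TPM in HFD SMs against 452 and 483 in HFD ARMs, and to 185 and 237 in ND SMs against 378 and 627 in ND ARMs. Fibroblast markers were called higher for 6 of 7 in HFD ARMs (261 and 236 TPM in SMs, 358 and 439 in ARMs) and for 7 of 7 in ND ARMs (159 and 222 against 464 and 677). Endothelial markers were called higher for 7 of 8 in HFD ARMs (35.7 and 25.5 TPM against 91.1 and 84.3) and for 1 of 8 in ND ARMs (18.2 and 20.8 against 22.7 and 50.9). Pericyte and smooth muscle markers were called higher for 2 of 8 in ND ARMs (17.6 and 14.8 TPM against 19.9 and 29.5), and 1 of 2 T cell markers tested was called higher in HFD ARMs. The second ND ARM library, in which most respiratory chain genes were lowest, had the highest sums of adipocyte, fibroblast, endothelial and pericyte markers in ND mice. Neutrophil markers were higher in ND SMs (120 and 96.3 TPM) than in ND ARMs (21.7 and 65.8), with 1 of 4 called lower. In HFD mice they ran the other way (18.2 and 16.8 TPM in SMs, 26.7 and 29.5 in ARMs), with 0 of 3 called. Male germ cell markers summed to 37 and 1.83 TPM in HFD SMs and to 6.54 and 1.97 in HFD ARMs. Brown or beige adipocyte markers summed to 3.53 to 6.09 TPM in all 8 libraries, with 0 calls. The part of these cells in the respiratory chain values was not tested.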

How the data were processed

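RNA-seq of ARMs and SMs was taken from 1 table per diet, in which the authors deposited for each gene and library an estimated count, an FPKM value and a TPM value. Per the labels the genome build was mm10, and the aligner and the counting program are not given in the sources used here. Estimated counts were not whole for 32.3% to 32.9% of genes in the HFD libraries and 8.55% to 9.36% in the ND libraries, and for 17 of 94 and 5 of 93 respiratory chain genes. The authors' mean columns were not used.

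Counts were rounded and fitted for each diet with edgeR 4.0.16 in R 4.3.3 (TMM factors 0.989 to 1.02, filterByExpr, quasi-likelihood test, two-sided, Benjamini-Hochberg adjustment over all genes). A gene was called at an adjusted p under 0.05, and also with a fold over 1.5. The common coefficient of variation between pools was 5.55% for HFD and 8.61% for ND. The standard error of a log2 fold change was taken from the quasi-likelihood F statistic. Levels are TPM of each library, with no test. Replicates of a group differed by more than counting noise (mean chi-square per gene 4.06 to 9.59). The sources used here name no molecular identifiers, and that chi-square reference covers counting error only. Gene length was implied by counts and FPKM and corrected by loess (span 0.5) as an offset. The code was tested on simulated data.

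Alternatives were DESeq2 1.42.0, library totals, upper-quartile factors, other filters on low counts (at least 1 count in all, or 10 in every library), the threshold of the study's methods (0.6 on the log2 scale and unadjusted p), the length correction, a block for the replicate number, a joint fit of the 2 tables, limma 3.58.1 on log2(FPKM + 1) and log2(FPKM + 0.1), and each library left out.

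Values are given for members called at both criteria, the 10 smallest p-values per diet, the highest and lowest change and highest TPM per complex, complex II, the isoform pairs, the complex I core subunits and members that differ between diets. 1 core subunit is not reported by name here. The members and lists were chosen with earlier results of these data known. Promoters came from RefSeq (GRCm38.p6), and 73 of 81 windows held, after the start, bases of a transcript of the gene in its own orientation. Plots were made in matplotlib 3.10.9 (Python 3.11.15).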

Additional observations from a re-analysis of the deposited data

How the results depend on the processing

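With 2 pools a group, the 95% interval reached past 1.5-fold for 10 of the 91 members in HFD mice and for 37 of the 89 in ND mice. In HFD mice 2 members were called higher with limma on either FPKM scale (Ndufb7 and Ndufv3), and 1 at the threshold of the study's methods, also by over 1.5-fold. With a library left out 0 to 2 were called, and by over 1.5-fold 0 to 2. The median of the HFD members was 0.084 with library totals, 0.004 with the length correction, 0.001 with the replicate block and the length correction, and 0.027 to 0.066 with a library left out. In ND mice 0 members were called lower with DESeq2, with the length correction and with limma without a filter, 4 in one fit of all 8 libraries and 0 to 2 with a library left out. By over 1.5-fold, 0 were called lower with DESeq2, with the length correction, with the replicate block and the length correction, and with limma without a filter, 2 in one fit of all 8 libraries, 2 with the replicate block, 2 with limma on either FPKM scale, 2 at the threshold of the study's methods and 0 to 2 with a library left out. The summed CPM gave a log2 ratio of 0.030 in HFD mice, against 0.063 in TPM. The difference between diets had a median of 0.057 with the length correction, 0.139 to 0.322 with a library left out, and 0 to 1 members past the threshold then. The cause of these changes was not tested. Where 1 library was left, it was assumed to vary like the other groups.

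Replicate numbers pair only 2 pools a group, and nothing in the labels says that they mark a shared batch. Deviations of same-numbered pools correlated over genes at -0.0284 in HFD mice and 0.221 in ND mice. With the replicate block 16 members were called lower in ND mice (18.0%, against 2.89% of all genes), against 2 without it (2.25%, against 0.458%), and with the block and the length correction 2 were. The 16 included Ndufa13, Uqcr11, Atp5k, Atp5e, Atp5j2, Cox6b1, Ndufa2 and Ndufb4, with adjusted p-values of 0.00312 to 0.0454. With the block 0 members were called in HFD mice, and 2 members passed in the difference between diets (Cox6c at 0.59 and Ndufa3 at 0.71).

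Of the members called in ND mice, Ndufa3 and Cox6c, neither changed sign under any alternative, and nor did Ppargc1b or Idh2 in HFD mice. The marker genes were not recomputed. Of 575 values of 34 named members in HFD mice 43 changed sign, in 12 genes, and of 592 values of 35 in ND mice 35 did, in 13 genes, none of them called on either side.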
